A study of Mus musculus with 7 samples.

Results

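The STAT proteins are transcription factors that carry the signal of cytokines to the nucleus, and the data analysed here show where Runx3 was bound and where the enhancer mark H3K4me1 lay around 6 of their genes in resting killer T cells. The genes were Stat2, Stat3, Stat4, Stat5a, Stat5b and Stat6, of 22350 protein-coding genes in the annotation. A region belonged to a gene when its midpoint lay in the gene body or within 20 kb of it. By that rule the Stat genes held 10 of the 4934 Runx3-bound regions and 62 of the 76705 H3K4me1-marked regions of the deposited lists. The windows of neighbours overlap, and 11 of the 62 marked regions lay in 2 windows, while 0 of the 10 bound regions did.

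Chromatin immunoprecipitation and sequencing (ChIP-seq) was done on resting splenic CD8+ T cells (CD8-TC) of wild-type ICR mice. The cells were captured from fresh spleens on magnetic beads that bind CD8, and the labels give 18 pooled mice for each library. Of 7 libraries, 3 were made with a home-made polyclonal antibody against Runx3, in 2 repeats, 2 with a monoclonal antibody against histone H3 carrying 1 methyl group on lysine 4 (H3K4me1), and 2 with rabbit non-immune serum (NIS) as the control. The authors called 1 list of regions for each antibody on its joined repeats against NIS, so no value below has a replicate error and the depth behind a region is unknown here. Mice were pooled and no cells lacking Runx3 were among these libraries, so the lists give occupancy in 1 cell population and not the effect of Runx3 on a gene.

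In the JAK-STAT pathway a cytokine joins its receptor chains, the JAK kinases bound to the chains phosphorylate STAT proteins, and the paired STATs enter the nucleus and bind DNA. Stat5a and Stat5b act downstream of IL-2, IL-7 and IL-15, Stat3 downstream of IL-6, IL-10 and IL-21, Stat4 downstream of IL-12, Stat6 downstream of IL-4 and Stat2 downstream of type I interferon. In CD8-TC these signals steer survival, proliferation and the choice between effector and memory fates, and H3K4me1 is found at enhancers and on the flanks of active promoters.

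The 5 sequences that follow carry the main observations. They are the central 200 bp of the 4 bound regions inside Stat4 and of the bound region near the second start of Stat5b, read from the plus strand of build mm9 (NCBIM37), 5′ to 3′. Capitals mark the RUNX motif, the sequence that Runx proteins recognise, searched as TGTGGT, as TGTGGC, as TGCGGT and as TGCGGC on both strands, so that TGTGGT on the other strand reads ACCACA. None of these windows overlaps an annotated exon. A match describes the letters of the window and is not evidence of a site.
Stat4 region 1, chr1:52068243-52068442: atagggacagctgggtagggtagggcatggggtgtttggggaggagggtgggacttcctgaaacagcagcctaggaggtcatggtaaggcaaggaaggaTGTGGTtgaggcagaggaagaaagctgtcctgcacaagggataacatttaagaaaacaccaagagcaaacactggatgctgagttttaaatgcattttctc
Stat4 region 2, chr1:52069686-52069885: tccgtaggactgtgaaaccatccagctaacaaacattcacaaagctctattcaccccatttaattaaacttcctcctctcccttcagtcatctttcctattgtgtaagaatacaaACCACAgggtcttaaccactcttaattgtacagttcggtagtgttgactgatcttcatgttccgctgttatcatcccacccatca
Stat4 region 3, chr1:52076692-52076891: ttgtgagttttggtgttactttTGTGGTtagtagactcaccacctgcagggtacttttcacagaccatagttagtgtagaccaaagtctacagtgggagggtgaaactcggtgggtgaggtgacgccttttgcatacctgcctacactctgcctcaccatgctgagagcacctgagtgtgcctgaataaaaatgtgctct
Stat4 region 4, chr1:52079132-52079331: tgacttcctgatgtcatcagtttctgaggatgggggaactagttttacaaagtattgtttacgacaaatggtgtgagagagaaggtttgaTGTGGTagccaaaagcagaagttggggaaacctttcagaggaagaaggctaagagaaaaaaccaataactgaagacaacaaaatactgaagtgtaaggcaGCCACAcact
Stat5b region 2, chr11:100685400-100685599: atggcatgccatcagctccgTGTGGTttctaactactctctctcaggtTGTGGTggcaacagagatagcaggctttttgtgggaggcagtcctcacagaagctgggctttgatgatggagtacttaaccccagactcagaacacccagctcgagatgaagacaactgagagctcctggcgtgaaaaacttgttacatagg

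Occupancy by Runx3 differed among the members from 0 to 6 regions. Stat4 held 6 regions, Stat5b 2, Stat3 and Stat2 1 each, and Stat5a and Stat6 0. Thus 4 of the 6 genes held at least 1, beside 19.8% of all protein-coding genes, and beside 23.8% of the 8437 genes whose windows were as long as those of the Stat genes (57972 to 160041 bp). In the gene body alone the count was 3 of 6 (Stat3, Stat4, Stat5b), beside 8.52% of all genes. The 6 regions of Stat4 were a count reached by 0.0626% of genes, or 14 of 22350, and over all genes the median was 0. Of these 6 regions, 4 lay in the gene body and 2 downstream of it, and with a margin of 5 kb the count was 4. The window of Stat4 was also the longest of the 6 genes, and per 100 kb of window the count was 3.75, beside 0.312 pooled over all genes. With so few members these shares are descriptions and no test was run on them.

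The enhancer mark was present at every member. The 6 windows held 7 (Stat2), 10 (Stat3), 14 (Stat4), 11 (Stat5a), 21 (Stat5b) and 10 (Stat6) H3K4me1-marked regions. The median was 4 over all genes and 5 over the 8437 genes with windows as long as those of the Stat genes. Of the 62 distinct regions, 35 had the midpoint in the body of a Stat gene, and some of the others had it in neighbouring genes. At least 1 H3K4me1-marked region in the window was held by 73.6% of all genes, so that presence alone does not set the members apart. The share of the window inside marked regions, which takes account of window length, was 35.4% for Stat5b, 29.7% for Stat6, 25.1% for Stat5a, 18.3% for both Stat2 and Stat4, and 15.0% for Stat3. Over all genes the median was 5.75%, with quartiles of 0 and 14.3%, so that each of the 6 lay above the upper quartile. The order by the mark was not the order by Runx3. Stat6 and Stat5a, which had no bound region, ranked above Stat4, which had 6. In the gene body alone this held for Stat6 (21.2%) but not for Stat5a (11.8%), beside 14.9% for Stat4.

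**Figure D1:**
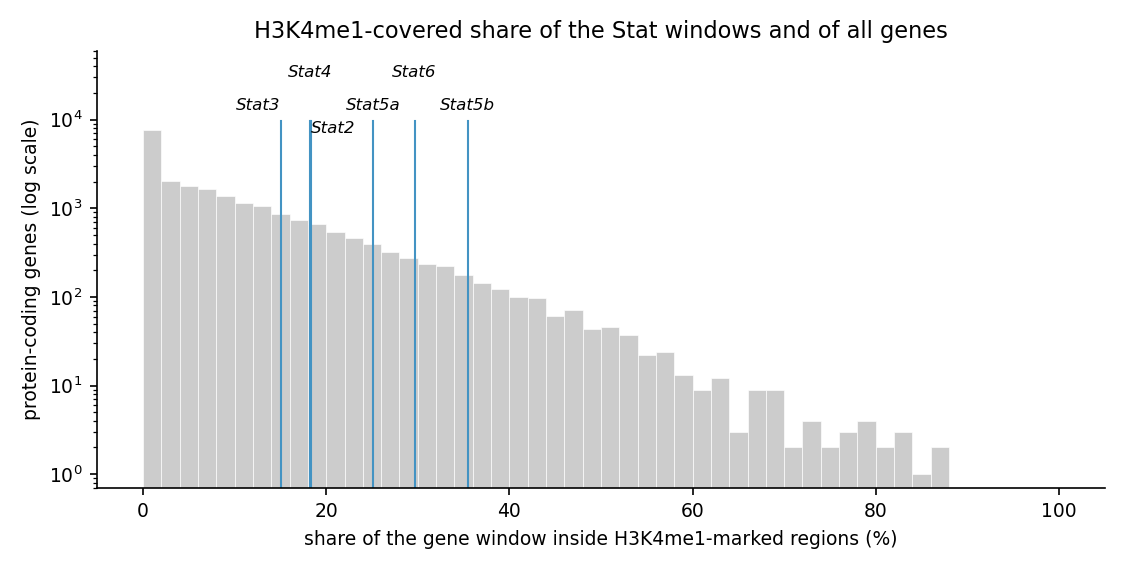
Share of each gene window (gene body with 20 kb on both sides) inside H3K4me1-marked regions, in bins of 2 percentage points, for 22350 protein-coding genes (grey bars, logarithmic axis), with the 6 Stat genes as blue lines. The Stat genes lie between 15.0 and 35.4%, above the median of 5.75%, and the lines of Stat2 and Stat4 nearly coincide.

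Stat4 is best known for driving interferon-γ production in response to IL-12. The gene lies on the plus strand of chr1:52043992-52164032 and has 2 annotated coding starts, the outer one at 52043992 and a second one 21096 bp further in, at 52065088. Of its Runx3-bound regions, 4 fell in a stretch of 11780 bp just inside the second start. Region 1 (chr1:52067830-52068857, 1028 bp) was 3255 bp from that start, with its midpoint in intron 1 of the transcript that begins there, and it held a whole coding exon. Region 2 (chr1:52069303-52070269, 967 bp) was 4698 bp from the start in intron 2. Regions 3 (chr1:52076355-52077229, 875 bp) and 4 (chr1:52078855-52079609, 755 bp) both lay in intron 3, which is 51380 bp long, at 11704 and 14144 bp from the start.

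These 4 regions were grouped in pairs under 2 wide blocks of the enhancer mark. Regions 1 and 2 were 445 bp apart, edge to edge, and lay within an H3K4me1-marked region of 4925 bp (chr1:52067169-52072093). Regions 3 and 4 were 1625 bp apart within a region of 6335 bp (chr1:52074343-52080677), the widest at this gene and wider than 98.5% of all marked regions. Between the 2 blocks lay 2249 bp that were not marked. Neighbours as close as regions 1 and 2 were not common, because 3.91% of all Runx3-bound regions had another one within 1 kb, against 2 of the 10 here.

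The outer start of Stat4 was bare in both lists. No H3K4me1-marked region lay within 2 kb of it, and the nearest were 51113 bp upstream and 20588 bp downstream. The second start, in contrast, lay inside a marked region of 1152 bp (chr1:52064580-52065731). Past the cluster the mark became sparse, with 3 regions of 445 to 1347 bp and then an unmarked stretch of 58932 bp, from 53.9 to 113 kb of the gene start, which is 49.1% of the gene body.

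The remaining 2 regions of the Stat4 window lay downstream of the gene, 90732 bp and more from the intronic cluster, and overlapped the mark. They are kept in the counts and are not described further, so that the gene body of Stat4 itself held 4 bound regions.

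**Figure D2:**
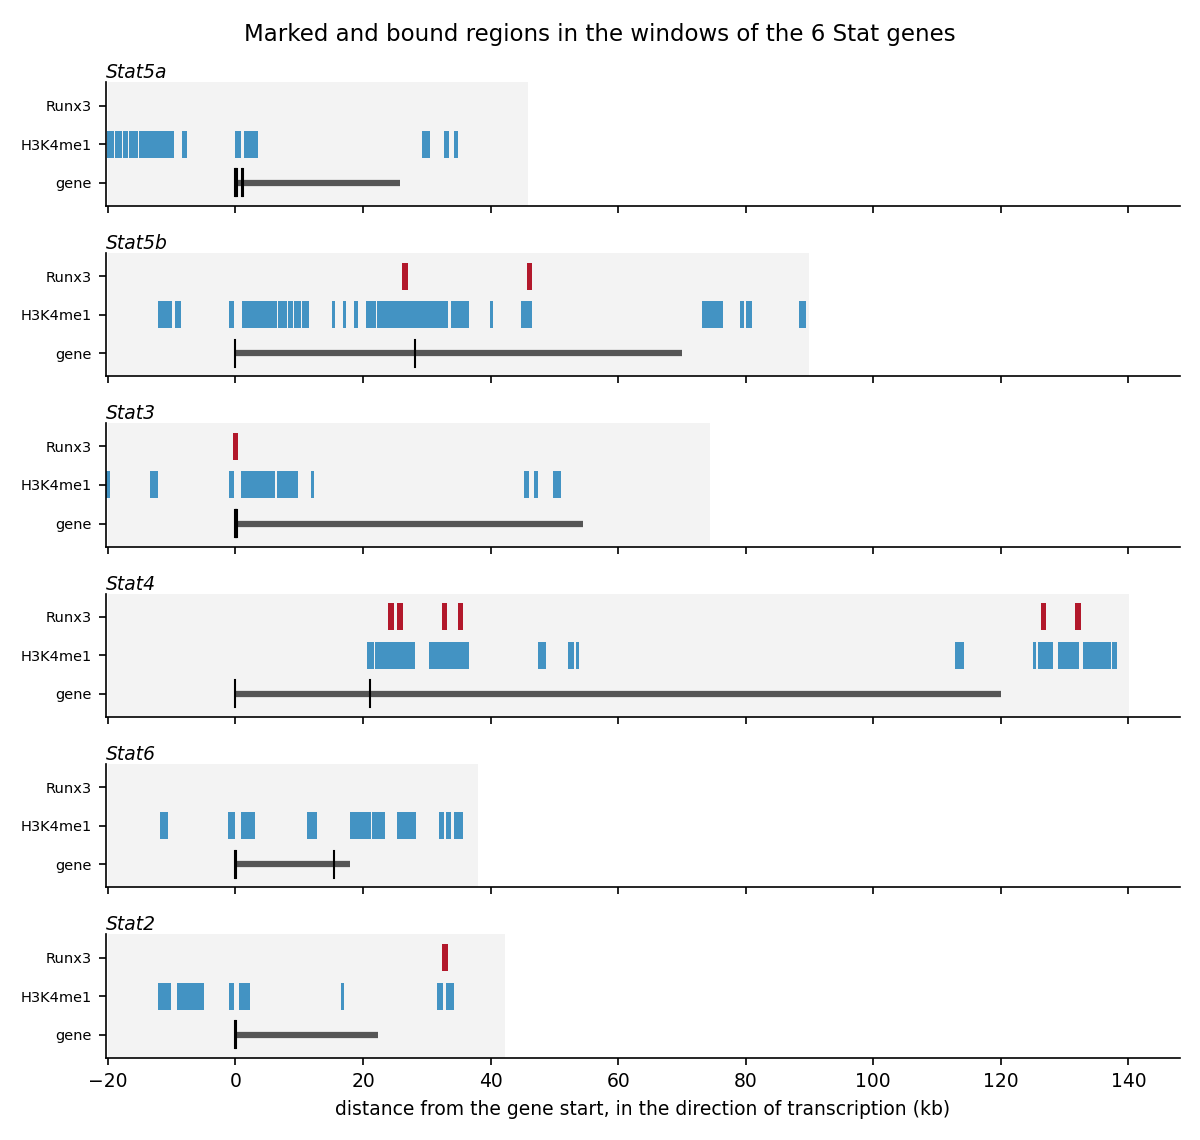
Position of Runx3-bound regions (red) and H3K4me1-marked regions (blue) in the window of each Stat gene (grey shading, gene body with 20 kb on both sides), as distance in kb from the gene start in the direction of transcription, with the gene body as a dark line and annotated coding starts as black ticks. Stat4 shows 4 bound regions after its second start and 2 beyond its end, and Stat5a and Stat6 show marked regions with no bound region.

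Stat5b, Stat5a and Stat3 form 1 locus of 158810 bp on chr11:100642045-100800854. Stat5b and Stat5a encode highly similar proteins, and the 2 genes stand head to head with 8627 bp between their starts, whereas Stat5a and Stat3 overlap by 72 bp at their 3′ ends. The locus held 3 Runx3-bound and 24 H3K4me1-marked regions. Both lists used uniquely aligned reads, and how much of this similar pair can be uniquely aligned was not tested. Stat5b held 2 bound regions and the window of Stat5a 0. Marked regions numbered 21 and 11, but the window of Stat5b is longer (109994 against 65819 bp), and per 100 kb of window there were 19.1 and 16.7. The gene bodies were covered by the mark to 41.7 and 11.8%. The midpoint nearest to Stat5a was that of Stat5b region 2, at 35165 bp from its start.

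Stat5b had the most marked regions (21) and the highest covered share of the 6 genes, above that of 96.0% of all genes. It lies on the minus strand of chr11:100642045-100712038. Stat5b region 2 (chr11:100685050-100685951, 902 bp) was 26538 bp into the gene, in intron 1 of the longer transcript, which is 41865 bp long, and 1658 bp before a second coding start at 100683842. It lay within an H3K4me1-marked region of 11103 bp (chr11:100678736-100689838) that also held this second start and ranked 219 of 76705 by width. Joined with neighbours within 1000 bp, it formed a block of 16167 bp, wider than 99.0% of the 48155 blocks. Stat5b region 1 (chr11:100665549-100666310, 762 bp) lay further in, in intron 3 with an edge over a coding exon, 17913 bp from the second start and 18739 bp from region 2, and its marked region was only 1091 bp wide. The outer start of Stat5b was not bound, and the marked region nearest downstream of it was 5610 bp wide.

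Stat5a carried the mark without a bound region. Its first 3 starts lay in a marked region of 889 bp (chr11:100720595-100721483), followed after 524 bp by one of 2230 bp. From 3.57 kb to the end of the gene the body was unmarked, a stretch of 22246 bp or 86.2% of its length. Of the 11 marked regions in its window, 6 lay upstream, and 8 were shared with the window of Stat5b and 3 with that of Stat3. The 25.1% of its window that was covered is therefore in large part the mark on its neighbours.

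Stat3 was the only member with Runx3 on its own start. The midpoint of Stat3 region 1 (chr11:100800430-100801279, 850 bp) was at 100800854, 0 bp from the outermost of 4 coding starts that all lay inside the region. The mark was interrupted there. It ended 215 bp upstream of the outermost start and resumed 858 bp downstream, a gap of 1072 bp, and 24.8% of the bound region was covered by the mark, all at its upstream edge. A marked region of 5409 bp (chr11:100794588-100799996) followed downstream, and an unmarked stretch of 32952 bp, 60.5% of the gene body, lay between 12.3 and 45.3 kb. The 300 bp upstream of the outermost start are shown because this was the member region without any RUNX motif. They are on the plus strand of mm9, while the gene runs on the minus strand, so that the start adjoins the left end, and capitals mark the single match to the ETS motif.
Stat3 upstream, chr11:100800855-100801154: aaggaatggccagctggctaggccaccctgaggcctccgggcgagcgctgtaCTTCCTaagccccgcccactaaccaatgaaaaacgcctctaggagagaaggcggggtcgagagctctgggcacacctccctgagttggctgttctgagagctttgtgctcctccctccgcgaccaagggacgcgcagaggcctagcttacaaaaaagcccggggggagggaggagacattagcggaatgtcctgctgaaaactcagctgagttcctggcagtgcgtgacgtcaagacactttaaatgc

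Stat6 and Stat2 lie on chr10. Stat6, the STAT of IL-4 signalling (chr10:127080042-127098013), had its nearest Runx3-bound midpoint 321148 bp from the gene body, the farthest of the 6 genes. Its window was nevertheless covered by the mark to 29.7%, more than that of 93.2% of genes. The mark ended 77 bp before its start and resumed 943 bp after it. The widest of its marked regions (3271 bp, chr10:127098001-127101271) lay over the end of the gene and in the neighbour Nab2, and 6 of its 10 regions were downstream of the gene.

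Stat2, which takes part in the transcription factor complex activated by type I interferon (chr10:127707629-127729905), had 1 bound region in its window, and that region lay at another gene. Stat2 region 1 (chr10:127740000-127740956, 957 bp) was 10573 bp beyond the end of Stat2, with its midpoint 87 bp from the start of Pan2, the gene of an mRNA deadenylase, and over an untranslated exon of it. Marked regions touched it on both sides and covered 50.2% of it, with the midpoint left free. At the start of Stat2 itself the mark flanked a gap of 793 bp and no Runx3 was called. The body of Stat2 had the lowest covered share of the 6 genes, 9.18%.

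The starts were compared across the members. A start outside the mark with marked regions within 2 kb on both sides was found at 4 of 6 outermost starts, those of Stat2, Stat3, Stat5b and Stat6, beside 29.3% of all genes. The gaps were 793, 1072, 1173 and 1019 bp. Stat5a differed in that its start lay inside the mark, as in 17.7% of genes, and Stat4 in that its outer start had none on either side, as in 42.5% of genes. Only the gap of Stat3 was occupied by a Runx3-bound region.

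**Figure D3:**
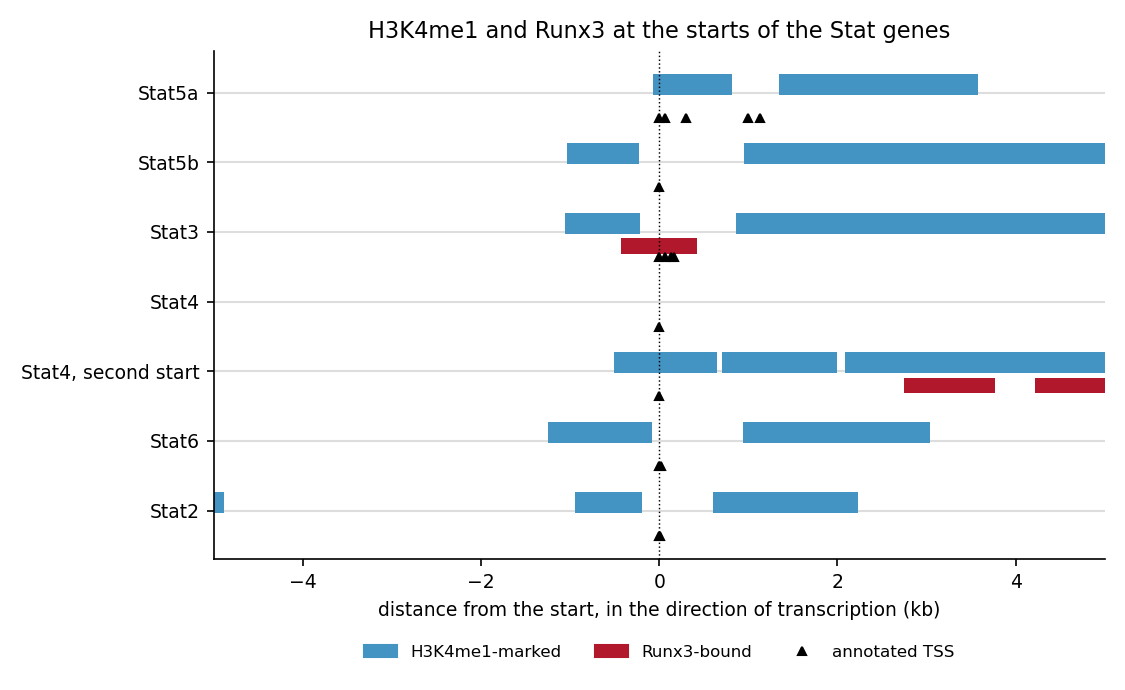
H3K4me1-marked (blue) and Runx3-bound regions (red) within 5 kb of the outermost coding start of each Stat gene and of the second start of Stat4, as distance in kb in the direction of transcription, with annotated coding starts as triangles. Gaps of 793 to 1173 bp lie at the starts of Stat2, Stat3, Stat5b and Stat6, and only that of Stat3 holds a bound region.

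All 10 Runx3-bound regions overlapped the mark by at least 1 bp (100%, 95% Wilson interval 72.2 to 100%, counting error only), beside 78.8% of the whole Runx3 list. The midpoint was inside a marked region in 8 of 10, beside 66.1%. The exceptions were the regions at the starts of Stat3 and Pan2. Both shares of the whole list lay within the intervals of the members. The intervals treat the 10 regions as independent, although Stat4 regions 1 and 2 lay in the same marked region, as did regions 3 and 4. Seen from the mark, 9 of the 62 marked regions (14.5%) overlapped a bound region, beside 5.49% of the whole H3K4me1 list, and 4 of the 9 were in the Stat4 window. Over 5 kb from any annotated start lay 4 of the 10 regions (40%, 16.8 to 68.7%), beside 63.9% of the list, among them Stat4 regions 3 and 4 and Stat5b region 1.

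The RUNX motif was found in 9 of the 10 regions, beside 88.8% of the Runx3 list, and in the central 200 bp of 8, beside 66.0%. In windows of the same width 5 kb to each side it was found in 18 of 20, the same share as in the 10 regions, whereas over the whole list it was found in 73.3% of such windows. In the central 200 bp of these windows it was found in 6 of 20, beside 27.7% over the list. The flanking windows were not cleared of bound regions, and some of those at the 2 regions downstream of Stat4 fell on a bound region. The 26 matches were unequally spread, from 0 in Stat3 region 1 to 5 in Stat5b region 1, with a median of 3 against 2 in the list. In Stat4 region 1 the single match, TGTGGT, had its centre 1.5 bp from the midpoint, as the sequence above shows. In Stat2 region 1 the single match was 420.5 bp from the midpoint, near the edge.

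The variants of the motif were counted by gene. The 12 matches in the 4 regions inside Stat4 were 8 of TGTGGT and 4 of TGTGGC, with 0 of the TGCGG kind. Stat5b had 4 of TGTGGT, 3 of TGTGGC and 1 of TGCGGC. By region, TGTGGT was in 7 of 10, beside 70.7% of the list, TGTGGC in 4, beside 51.3%, TGCGGT in 1, beside 986 of the 4934, and TGCGGC in 2, beside 14.1%. The GC content was 40.4 to 42.7% in the 4 regions inside Stat4 and 63.6% in Stat3 region 1, with a median of 45.9% in the list.

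Ets proteins are partners of Runx proteins on DNA. Their motif, searched as AGGAAA, as AGGAAG, as CGGAAA and as CGGAAG on both strands, was in 9 of the 10 regions, beside 95.0% of the list, with Stat2 region 1 as the exception. A RUNX and an ETS motif at most 50 bp apart were found in 7 of 10, beside 58.6%. The closest pair was in Stat4 region 1, with 2 bp between them, and 6 ETS matches lay in this region in all. Sites of the STAT proteins themselves were searched too, with overlap with other motifs allowed. The GAS motif TTCNNNGAA was in 3 regions (among them Stat4 region 3 and, with 2 matches, Stat2 region 1), beside 25.8% of the list. The STAT6 motif, TTC and GAA with 4 free bases between, was in 3 (Stat4 regions 1 and 4 and Stat2 region 1), beside 22.6%. The ISRE core, GAAA and GAAA with 2 free bases between, was in 1, beside 14.8%. None of these counts was far from the share of the list.

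**Figure D4:**
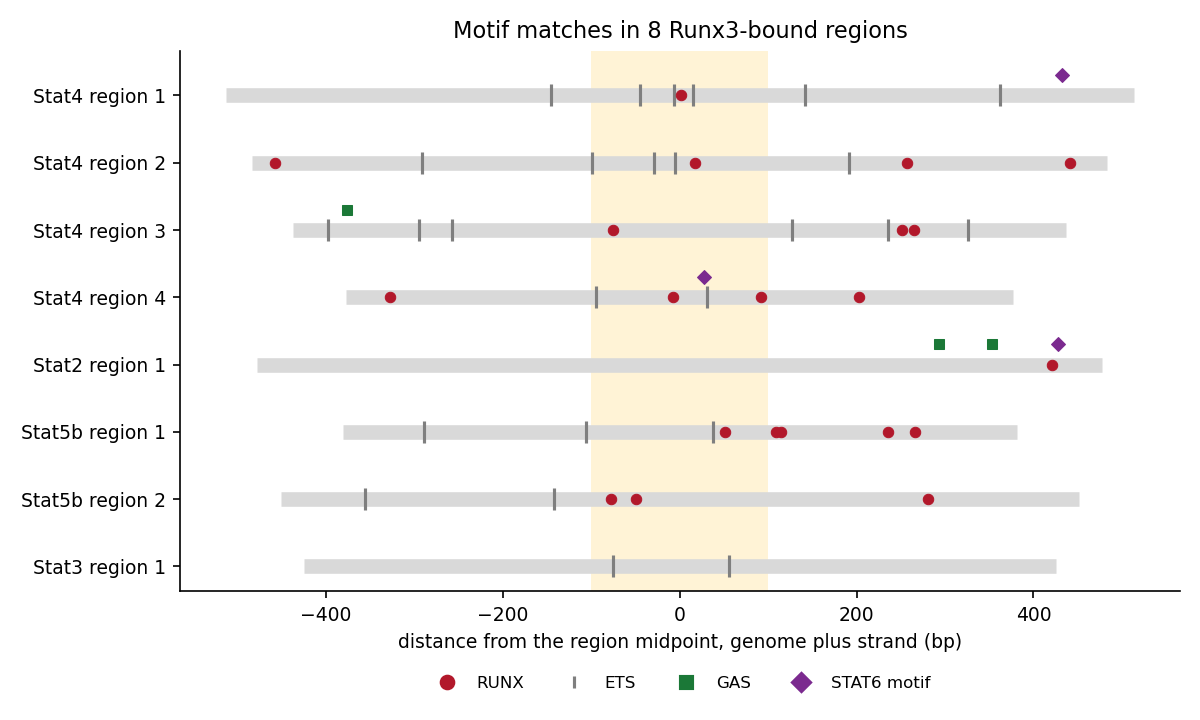
Motif matches in 8 of the Runx3-bound regions (grey bars), as distance in bp of the motif centre from the region midpoint on the plus strand, with the central 200 bp shaded. RUNX matches are red circles, ETS matches grey ticks, and GAS and STAT6 matches green squares and purple diamonds, and Stat3 region 1 has ETS but no RUNX matches.

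The Stat genes were set beside 37 other genes of the pathway. Of these, 18 (48.6%) held at least 1 Runx3-bound region, beside 19.8% of all genes. In the gene body alone the count was 7 of 37, beside 8.52% of all genes. The count was 13 of 18 for cytokine receptor chains, 3 of 4 for JAK kinases and 2 of 15 for inhibitors. The most were at Jak1, a kinase shared by most of these receptors (5), Il2ra, the α chain of the IL-2 receptor (4), Il21r, the IL-21 receptor (4), and Il6ra, the IL-6 receptor (3), followed by 6 receptor genes with 2 each (Il2rb, Il4ra, Il10rb, Il12rb2, Ifnar1 and Ifngr1). Stat4, with 6 in its window, was above each of the 37. Of these 6 regions, 4 lay in the gene body and 2 downstream of it, and a ranking by gene body alone was not made. Both chains that sense IL-12 upstream of Stat4 were on the list, Il12rb2 with 2 regions and Il12rb1 with 0.

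A count of 0 was shared by 19 of the 37 genes. They were the receptor genes Il2rg, Il10ra, Il12rb1, Il15ra and Il27ra, the kinase Jak2, the Socs genes Socs1 to Socs7 and Cish, which switch cytokine signals off, Pias1, Pias2 and Pias3, and the phosphatase genes Ptpn2 and Ptpn11. As at Stat6 and Stat5a, many of these carried the mark in their windows. The covered share of the window was 66.8% at Il10ra, 62.3% at Socs3 and 42.1% at Socs1, and it was as low as 0.707% at Socs6. The windows of Socs1 and Socs3 were only 41729 and 43969 bp long, mostly the 20 kb on both sides, where the mark can be that of neighbours. By group its median was 31.1% for receptors, 24.2% for kinases and 21.8% for inhibitors, beside 21.7% for the 6 Stat genes.

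**Figure D5:**
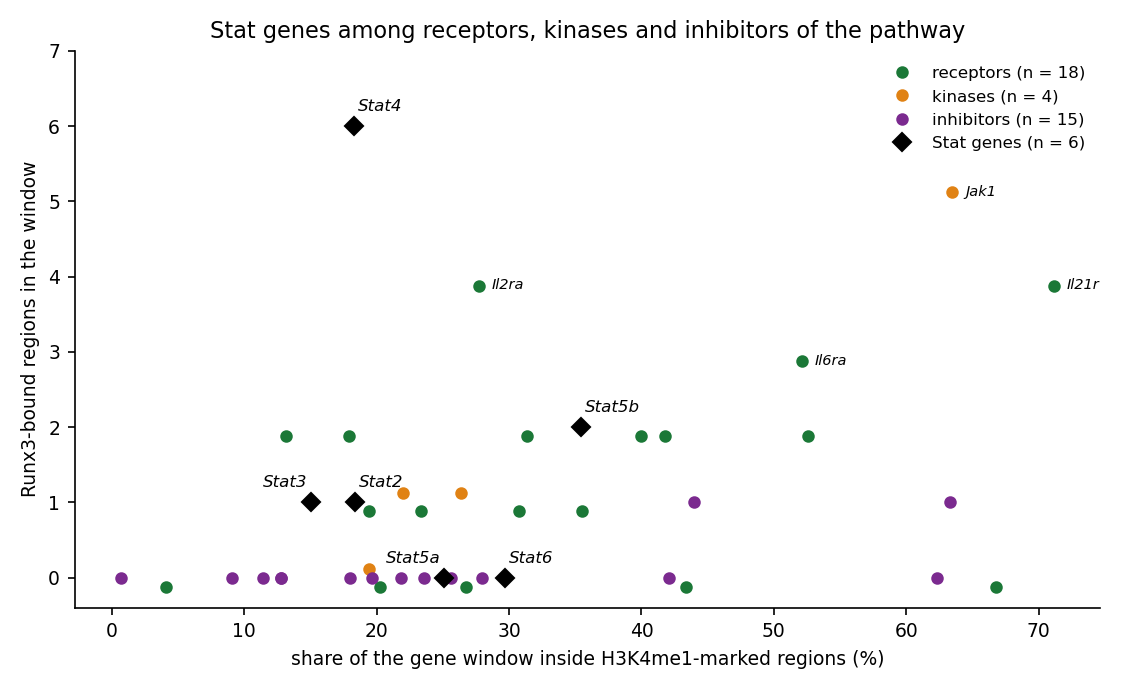
Number of Runx3-bound regions in the gene window against the share of the window inside H3K4me1-marked regions, for the 6 Stat genes (black diamonds) and 37 other genes of the pathway, with receptors and kinases drawn slightly below and above the whole number so that points stay visible. Stat4 has the most bound regions in its window (6, of which 4 are in the gene body) at a covered share of 18.3%, and inhibitors lie at 0 or 1.

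The labelled cell type was checked by the same covered share at marker genes. At 6 T cell genes (Cd3e, Cd3g, Cd2, Thy1, Cd8a and Cd8b1) it was 29.4 to 68.1%, at 4 B cell genes 14.7 to 41.2%, and at 4 myeloid genes 0 to 31.2%, with 0 at Lyz2. The windows of B cell genes such as Cd79a thus carried the mark, and shares of the gene bodies alone were not taken for the markers. The labels give a purity of over 95% for the isolated cells, and the part of other cells in the Stat values was not tested.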

How the data were processed

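Per the labels and the study's methods, the authors aligned reads to mm9 with ELAND (CASAVA 1.6 and 1.7 in the submitters' processing notes), kept unique alignments and ran MACS (1.4) on the pooled repeats of an antibody with pooled NIS as control. The deposited lists give chromosome, start, end and name, with no score, count or summit. Here starts were moved by 1 bp to count from 1. Genes and TSSs came from GENCODE and sequences from the genome of NCBIM37, the same build.

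Windows were the gene body with 20 kb on both sides, and a region was assigned by its midpoint. Overlap needed 1 bp. Shares have 95% Wilson intervals. Details of 2 bound regions downstream of Stat4 are not reported here. No test was possible without replicate values. The members and the pathway and marker lists were chosen with earlier results of these data known. Named were the Stat genes, each Runx3-bound region, marked regions that held one, covered a TSS or were the widest, the 5 pathway genes with the most bound regions (with ties) and those with 0. Motif and interval functions were tested on simulated data. Python 3.11.15, numpy 2.4.6, scipy 1.17.1 and matplotlib 3.10.9 were used.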

Additional observations from a re-analysis of the deposited data

How the results depend on the processing

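Of 30 alternatives to 8 results, 26 kept the count within 1.5 times its value, or the share within its Wilson interval (for the covered share, within 1 SD over the 6 genes), and 4 moved it further. The number of H3K4me1-marked regions at the Stat genes was 62, and it was 35 in the gene bodies alone (margin 0 kb), 38 when the nearest coding TSS had to be that of a Stat gene, and 34 with neighbours within 1000 bp merged. The number of pathway genes with a Runx3-bound region was 18, and 7 in the gene bodies alone. The 10 Runx3-bound regions became 7 at margins of 0 and 5 kb and by the nearest coding TSS, and were 10 at 50 kb, where Stat5a gained the region of its neighbour and Stat6 still had 0. No paired analysis was possible because the repeats of an antibody were joined before calling, which also prevented leaving out a repeat. Without scores or read counts, a missing region says only that none was called.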
